A study of Mus musculus with 8 samples.

Results

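Goblet cell genes were examined in E18.5 mouse embryos lacking the transcription factor Rfx6, in RNA of the small intestine. The set holds 9 genes, Muc2, Tff3, Spdef, Agr2, Clca3, Fcgbp, Zg16, Spink4 and Retnlb, found by the gene name printed beside each probe on the array, among 55681 probes in all. Each had 1 probe, spotted 1 time. Total RNA was hybridised to 8 single-colour arrays, 4 from wild-type (Rfx6+/+) tissue, called control here, and 4 from Rfx6-/- tissue, called knockout. The null allele came from crossing Rfx6f/+ mice with CMV-Cre mice, and the heterozygous offspring were intercrossed to give the homozygotes. CMV-Cre acts throughout the body, so the gene was lost in every tissue of the embryo and not in the intestine alone. The labels used here give no strain or sex, and do not say whether each array is 1 embryo, so the p-values measure only the spread between these samples.

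Goblet cells are secretory cells of the gut epithelium that release the gel-forming mucin Muc2 together with small proteins that cross-link, space or guard the mucus. They arise from progenitors that switch on Atoh1, and mature under Spdef. Enteroendocrine cells, in which Rfx6 acts, descend from the same Atoh1-dependent progenitors. The series asks which genes Rfx6 regulates. Several of these genes, Agr2 and Spdef among them, are also expressed by mucous cells of the stomach.

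Levels are log2 of the processed signal relative to the 75th percentile of the same array, so a level of 1 is 2-fold above that percentile. Differences are knockout minus control, and genes were tested with limma, with Benjamini-Hochberg adjustment over 23290 genes and a threshold of 0.05. The array percentile lay between 636 and 741 signal units, and 57.4% to 67.1% of probes were well above background. In the labelled tissue Cdx1 and Cdx2, which define the intestine, were well above background on all 8 arrays. They differed by -0.17 and -0.24 (limma, adjusted p = 0.383 and 0.212). The same check of 5 small intestine genes held Lct, Fabp1 and Fabp2, also well above background on all 8 arrays. These 3 were lower in the knockout, by -0.75, -0.65 and -0.42 (limma, adjusted p = 0.0296, 0.0079 and 0.0483). Of 10 enteroendocrine hormone genes, 7 were well above background on all 8 arrays, and of these 5 were lower in the knockout, with a median difference of -2.65 over the 7. Gip and Gcg stood well above background on every control and no knockout array, and were at least 173-fold and at least 112-fold lower (limma, adjusted p = 9.0e-08 and 8.1e-09). Such bounds take, per dim array, the dimmest signal that still counts as well above background, or the gene's own reading where that is brighter. The Rfx6 probe itself read 0.38 higher and did not pass (limma, adjusted p = 0.503), so it gave no check of the genotype labels.

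The members' probes differ in where along the transcript they read, which bears on the results given further on. The probes of Muc2 and Fcgbp start far into long transcripts, at base 6654 and base 7667, while those of Spink4 and Zg16 start at base 235 and base 409 of short ones. These 4 probe sequences are shown because the results turn on these genes. On mm9 they lie at chr7:148940000-148940059 (plus strand) for Muc2, chr7:28905517-28905576 (plus strand) for Fcgbp, chr7:134193837-134193896 (minus strand) for Zg16 and chr4:40876206-40878330 (plus strand) for Spink4. The Spink4 probe has 60 bases but spans 2125 bases of the genome, so it is joined across a gap. They are written 5' to 3'.
Muc2: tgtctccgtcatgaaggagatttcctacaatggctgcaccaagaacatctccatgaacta
Fcgbp: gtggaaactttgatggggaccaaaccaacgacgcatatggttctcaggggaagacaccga
Zg16: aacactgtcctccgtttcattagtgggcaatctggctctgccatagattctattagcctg
Spink4: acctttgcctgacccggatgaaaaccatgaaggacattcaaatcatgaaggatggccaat

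The other probes lie at chr17:31262279-31262338 for Tff3, chr17:27851401-27851460 for Spdef and chr3:144667558-144667617 for Clca3, all on the minus strand, and at chr12:36730506-36730565 for Agr2 and chr16:48818874-48818933 for Retnlb, both on the plus strand. The gene the array calls Clca3, known as gob-5, carries the symbol Clca1 in RefSeq today. The exon or untranslated region holding each probe was not analysed here.

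Of the 9 genes, 8 were well above background on all 8 arrays and could be tested; Retnlb could not. Of these 8, Zg16 fell and Spdef rose, and the other 6 did not pass the threshold. Over all genes tested, 1145 of 23290 passed (4.92%), of which 602 were lower (2.58%) and 543 higher (2.33%). The split between lower and higher depended on scaling: 52.6% of the calls were lower with the percentile, 42.8% after quantile normalization (469 lower, 626 higher) and 31.7% after median centring (253 lower, 545 higher). The members' differences were above 0 for 5 genes and below 0 for 3, with a median of 0.32, against a median of -0.05 and a share above 0 of 39.5% over all genes. The members' median was 0.15 without control 2 and 0.13 with array weights, but 0.41 without control 3 and 0.45 after quantile normalization. The knockout and control values did not overlap for Spdef, Agr2 and Zg16, 3 of 8, where 14.6% of genes with a value on every array did not overlap. Of these 3, 2 were higher (5.37% of all genes) and 1 was lower (9.26%).

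**Figure D1:**
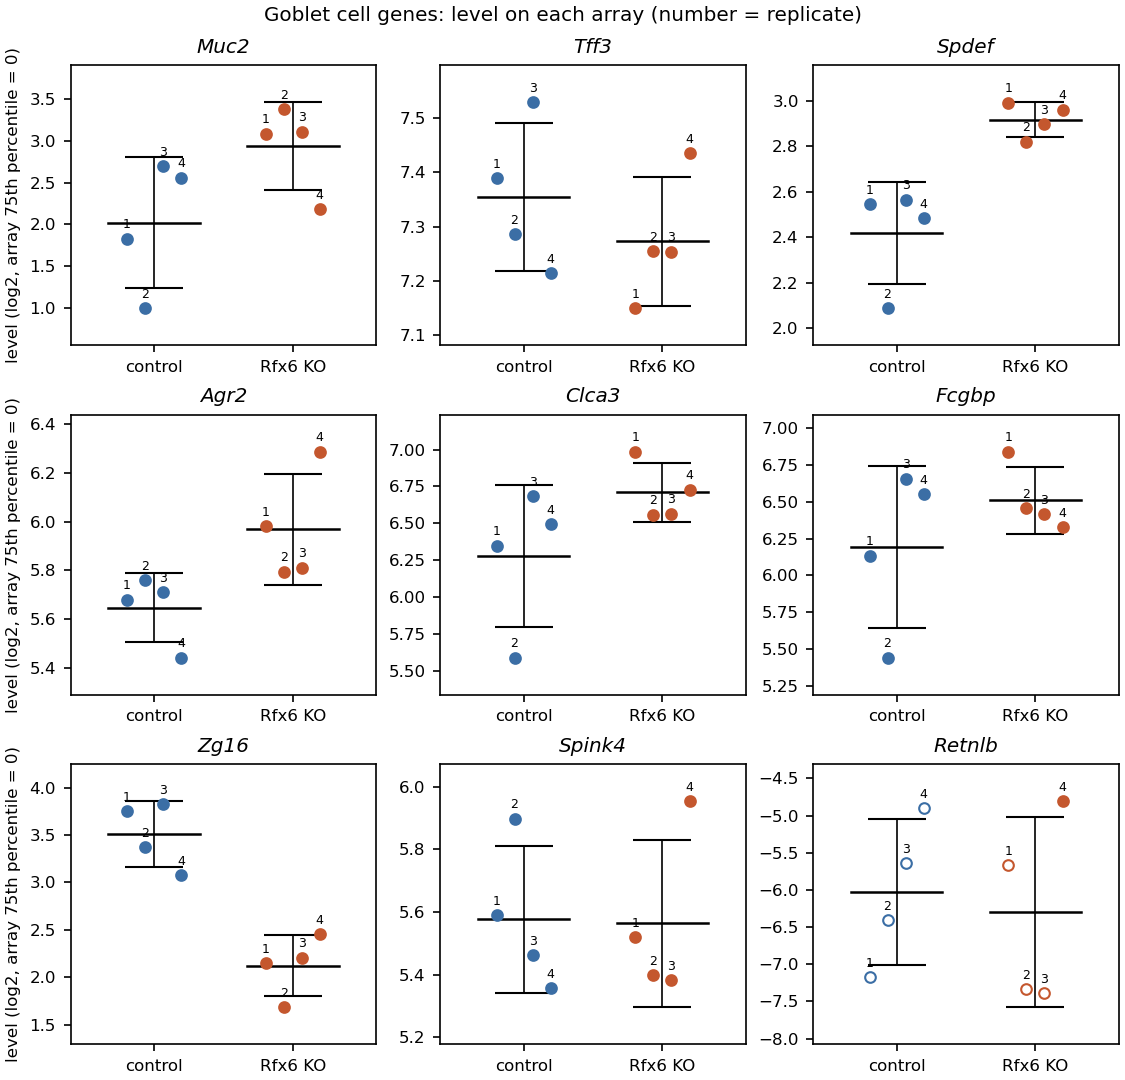
Level of each goblet cell gene on each array, on the y axis in log2 units relative to the 75th percentile of the array, for control (blue) and Rfx6 knockout (orange) arrays. Numbers are replicate numbers, black lines are group means with the SD (n = 4), open circles are values not well above background, and each panel has its own y range; the groups are apart for Zg16, Spdef and Agr2, and control 2 is the lowest control for Muc2, Spdef, Clca3 and Fcgbp.

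Zg16, a small lectin-like protein that binds the cell wall of Gram-positive bacteria and keeps them off the epithelium, was the member that fell. Its level was 3.75, 3.37, 3.83 and 3.08 on control arrays 1 to 4 and 2.15, 1.69, 2.21 and 2.45 on knockout arrays 1 to 4. Every knockout array lay below every control array, and the gap between the groups was wider than either group's SD. In signal units the controls ran from 5891 to 9134 and the knockouts from 2217 to 3481. The group means were 3.51 ± 0.35 (SD, n = 4) and 2.12 ± 0.32 (SD, n = 4). The difference was -1.38 (SE 0.20, 95% interval -1.85 to -0.92), that is 2.61-fold lower in the knockout, with an adjusted p of 0.0068 from limma. The exact two-sided permutation test gave 0.0286, the smallest value that 4 arrays against 4 can give. Ordered by difference over 23290 genes, Zg16 stood at place 49 from the lowest. The arrays lay in 2 rows of 1 slide, and the difference was -1.64 in the row with 1 control and 3 knockout arrays and -1.28 in the row with 3 controls and 1 knockout array.

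Zg16 is also known from the zymogen granules of the pancreas, and it is abundant in the colon, so the markers of both are given beside it. Of 6 exocrine pancreas markers, 4 were tested and none passed the threshold in limma (the lowest adjusted p was 0.409), with a median difference of -0.54. On none of the 8 arrays did Pnlip or Ptf1a stand well above background. The summed level of the list ran from 2.63 to 4.27 in the controls and from 2.20 to 3.95 in the knockouts. On control arrays 1 to 4 it was 4.27, 2.63, 4.04 and 3.16, higher on the 2 controls with the most Zg16, and on knockout arrays 1 to 4 it was 3.95, 2.82, 3.11 and 2.20, lowest on the knockout with the most Zg16. Of 6 colon markers 4 were tested, and the water channel Aqp8 fell by 1.80 (limma, adjusted p = 2.7e-04). The summed colon level was 4.91 to 5.13 in the controls and 4.13 to 4.47 in the knockouts. Hoxb13 stood well above background on 0 arrays and Hoxd13 on 1. The part of pancreatic and of colon RNA in the Zg16 result was not tested.

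Spdef, the ETS-family factor that drives goblet cell maturation, was the member that rose. It read 2.55, 2.09, 2.57 and 2.48 on control arrays 1 to 4 and 2.99, 2.82, 2.90 and 2.96 on knockout arrays 1 to 4. The groups did not overlap, control 2 was the lowest array, and the knockout arrays lay close together. The means were 2.42 ± 0.22 (SD, n = 4) and 2.92 ± 0.08 (SD, n = 4), a difference of 0.50 (SE 0.12, 95% interval 0.23 to 0.76), or 1.41-fold. The adjusted p from limma was 0.0455, and the exact two-sided permutation p was 0.0286. This call sits at the edge of the threshold. Leaving out control 2 kept it (adjusted p = 0.0297 in limma), while leaving out any other single array (control 1, 3 or 4, or knockout 1, 2, 3 or 4) ended it, with adjusted p up to 0.131. It was also lost with the replicate number as a block (limma, adjusted p = 0.100), or with the slide row as a block (0.114; 0.35 in one row and 0.61 in the other).

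Agr2, a disulfide isomerase of the endoplasmic reticulum needed to fold Muc2, was the other member whose knockout arrays all lay above the controls. Control arrays 1 to 4 read 5.68, 5.76, 5.71 and 5.44, and knockout arrays 1 to 4 read 5.98, 5.80, 5.81 and 6.29. The margin was small: the highest control, 5.76, stood just under the lowest knockout, 5.80, and knockout 4 was the highest of all. The difference was 0.32 (SE 0.13, 95% interval 0.03 to 0.61), or 1.25-fold, and did not pass in limma (adjusted p = 0.199; exact two-sided permutation p = 0.0286). It passed under quantile normalization (0.47, adjusted p = 0.0341) and with the series matrix values (0.43, adjusted p = 0.0261).

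Muc2, the gel-forming mucin itself, had the largest positive difference of the 8 tested members and the widest spread. On control arrays 1 to 4 it read 1.83, 1.00, 2.70 and 2.56, and on knockout arrays 1 to 4 it read 3.08, 3.38, 3.11 and 2.18. Of the knockout arrays 3 lay above every control, but knockout 4 fell below controls 3 and 4, so the groups overlapped. The means were 2.02 ± 0.78 (SD, n = 4) and 2.94 ± 0.52 (SD, n = 4). The difference of 0.92 (SE 0.39, 95% interval 0.03 to 1.80) did not pass in limma (adjusted p = 0.230; exact two-sided permutation p = 0.0857). On leaving out 1 array it ran from 0.58 without control 2 (limma, adjusted p = 0.337) to 1.17 without knockout 4 (0.126).

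Clca3 and Fcgbp, a metalloprotease-like protein and a large protein bound into the Muc2 network, shared part of this array pattern. Clca3 read 6.35, 5.59, 6.68 and 6.49 in the controls and 6.99, 6.56, 6.57 and 6.73 in the knockouts. Fcgbp read 6.13, 5.44, 6.66 and 6.55 in the controls and 6.84, 6.46, 6.41 and 6.33 in the knockouts. For both genes control 2 was the lowest of the 8 arrays, knockout 1 was the highest, and the groups overlapped. The differences were 0.43 for Clca3 (SE 0.22, 95% interval -0.07 to 0.94) and 0.31 for Fcgbp (SE 0.25, 95% interval -0.26 to 0.89), and neither passed in limma (adjusted p = 0.317 and 0.523). Exact two-sided permutation gave 0.114 and 0.400. Without control 2 the differences were 0.20 and 0.063, and without knockout 1 that of Fcgbp was 0.20. Without control 3 they were 0.57 for Clca3 and 0.47 for Fcgbp.

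Tff3 and Spink4 are small secreted proteins, a trefoil peptide that aids epithelial repair and a Kazal-type protease inhibitor. Tff3 read 7.39, 7.29, 7.53 and 7.21 in the controls and 7.15, 7.25, 7.25 and 7.44 in the knockouts, a difference of -0.08 (SE 0.098, 95% interval -0.30 to 0.14). Spink4 read 5.59, 5.90, 5.46 and 5.36 in the controls and 5.52, 5.40, 5.38 and 5.95 in the knockouts, a difference of -0.01 (SE 0.16, 95% interval -0.37 to 0.35). The groups overlapped for both, and neither difference passed in limma (adjusted p = 0.672 and 0.973; exact two-sided permutation p = 0.429 and 0.914). For Spink4 the 2 highest arrays were control 2 and knockout 4. The intervals leave room for changes of up to the bounds given and do not show that the genes were equal.

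Retnlb, a resistin-like antimicrobial protein induced by bacterial colonisation, was near the background. Its signal was between 4.25 and 23.4 units on the 8 arrays, and it was well above background on 1 array, knockout 4, at 22.7 units. Control 4 read 23.4 units without passing the same criterion. With the filter used here no difference was tested, and no fold is given.

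**Figure D2:**
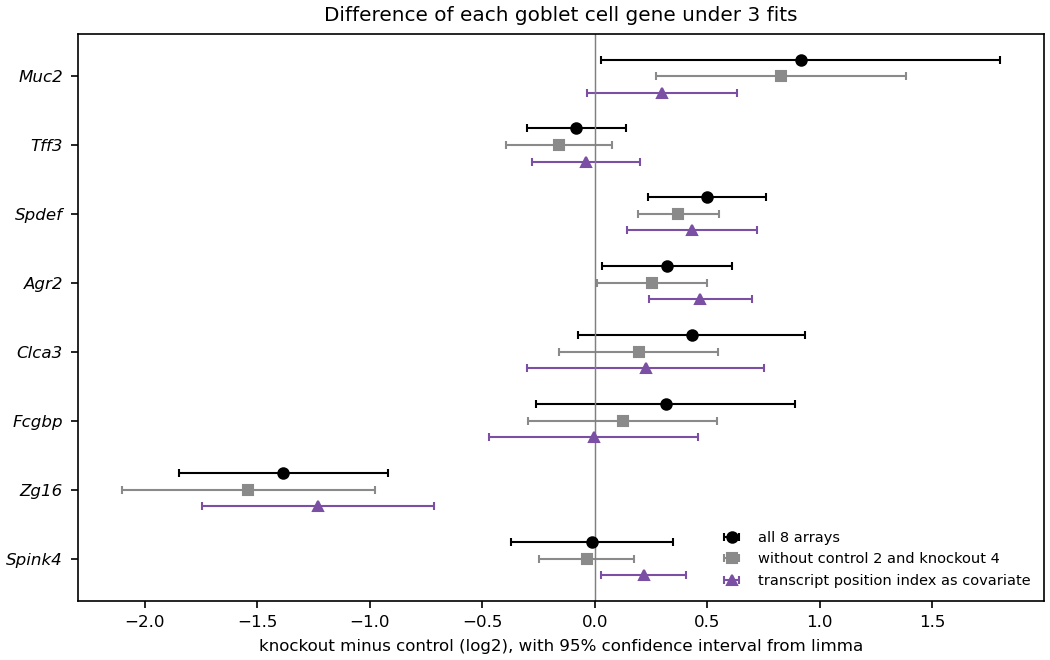
Difference of each of the 8 tested goblet cell genes, knockout minus control in log2 units on the x axis, with the 95% confidence interval from limma, for all 8 arrays (black circles), without control 2 and knockout 4 (grey squares) and with the transcript position index of each array as a covariate (purple triangles). Zg16 stays between -1.54 and -1.23 in the 3 fits, while Muc2 goes from 0.92 to 0.30 with the covariate.

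Part of the spread within the groups moved with the place of the probe in its transcript. Over all genes with a known probe start, the deviation of each array from its group mean was taken as a median within bins of that start. On control 2 the median deviation went from 0.119 for the 2309 genes whose probe starts within the first 500 bases to -0.145 for the 552 genes starting beyond base 7000. Knockout 4 went the same way, from 0.166 to -0.101, and control 4 the opposite way, from -0.117 to 0.102. The median difference between the groups also moved along the bins, from -0.134 to 0.067.

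**Figure D3:**
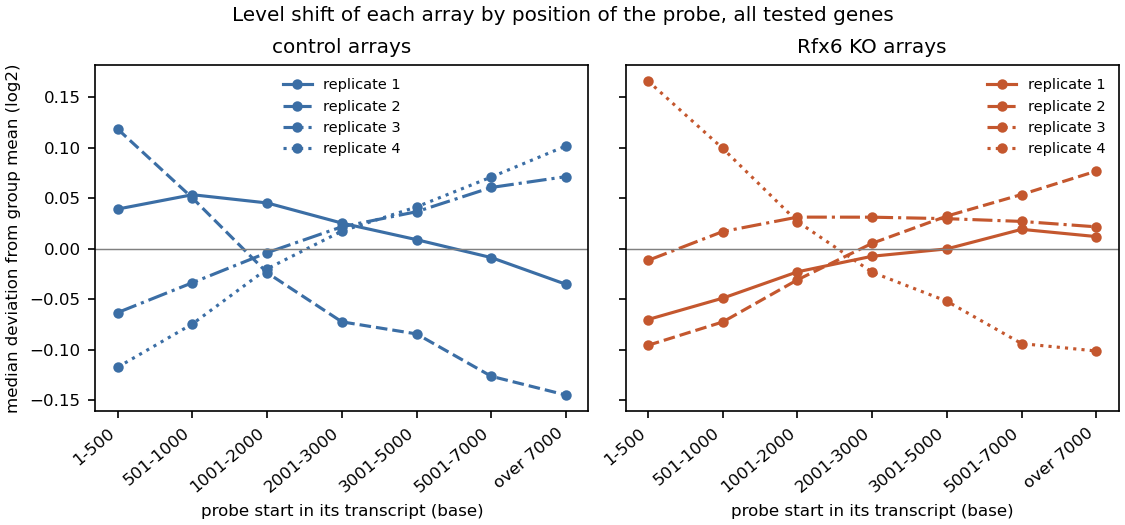
Median deviation of each array from its group mean (y axis, log2) for all tested genes binned by the base at which the probe starts in its transcript (x axis), with control arrays on the left and knockout arrays on the right, 1 line per replicate. Control 2 and knockout 4 fall from 0.119 and 0.166 in the first bin to -0.145 and -0.101 in the last, and control 4 climbs from -0.117 to 0.102.

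An index per array was formed as the median level shift of 1485 genes whose probe starts at base 5000 or later minus that of 5227 genes whose probe starts before base 1000. It was -0.14, -0.29, 0.03 and 0.10 on control arrays 1 to 4 and 0.17, 0.23, 0.11 and -0.15 on knockout arrays 1 to 4. The groups overlapped in it, with control 2 and knockout 4 lowest in their groups. Knockout arrays 1, 2 and 3 lay above every control, so the index was partly tied to genotype. Muc2, whose probe starts late and is 1 of the 1485, followed the index over the 8 arrays after removal of the group means (Pearson r = 0.96, Spearman rho = 0.88; exact permutation within groups, p = 0.0069 and 0.0191). Spink4, whose probe starts early, ran against it (r = -0.95, rho = -0.86; exact permutation p = 0.0104 and 0.0208). Agr2 did likewise (r = -0.81, rho = -0.83; exact permutation p = 0.0156 and 0.0208), and Fcgbp followed it (r = 0.78, rho = 0.83; exact permutation p = 0.0365 and 0.0260). For Clca3, Spdef, Tff3 and Zg16, r was 0.58, 0.41, -0.34 and -0.48 (exact permutation p from 0.189 to 0.441). After adjustment over the 8 genes, p for r was 0.0417 for Muc2, Spink4 and Agr2 and 0.0729 for Fcgbp, and p for rho was 0.0521 for these 4. Without control 2 and knockout 4, the arrays farthest out, r was 0.87 for Muc2, -0.72 for Spink4, 0.56 for Fcgbp and -0.48 for Agr2. All 4 relations were weaker than on 8 arrays, that of Muc2 least, so they rested in part on those arrays. For Zg16, r was -0.70 without them, against -0.48 on all 8 arrays, and this change was not tested.

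With the index as a covariate, an alternative chosen after the data were seen, the difference of Muc2 went from 0.92 to 0.30 (SE 0.14; limma, adjusted p = 0.280) and that of Fcgbp from 0.31 to -0.0042. The difference of Clca3 became 0.23, and that of Spink4 0.22 (limma, adjusted p = 0.177). Agr2 became 0.47 and passed (limma, adjusted p = 0.0419), Spdef became 0.43 and did not (0.102), and Zg16 remained lower at -1.23 (0.0279). Leaving out control 2 and knockout 4 gave -1.54 for Zg16 (limma, adjusted p = 0.0263), 0.37 for Spdef (0.0535), 0.25 for Agr2 and 0.83 for Muc2 (0.0998). Zg16 was thus the member that passed in each of these fits. The index was formed from the same arrays and differed in part with genotype. The covariate fit therefore cannot fully tell index and genotype apart, for Muc2 and Fcgbp included.

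The genes whose deviations were most like those of Muc2 over the 8 arrays, among 4625 genes compared, were Bmp6 (Pearson r = 0.996), Abcg1 (0.995), the transcript ENSMUST00000026590 (0.994), Pcdhb17 (0.994) and Iqgap3 (0.994). Their probes started between base 2291 and base 5470. None of the 5 passed the test between groups in limma (adjusted p from 0.140 to 0.625). These are descriptions over arrays that share labelling and hybridisation.

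Other genes of the secretory programme were taken from 4 lists. Of 11 transcription factors of secretory and goblet cells, 5 rose and none fell, with a median difference of 0.40, against 2.33% higher and 2.58% lower over all genes. Foxa1 and Foxa2, forkhead factors required for goblet cells, rose by 1.23 (SE 0.14) and 1.00 (SE 0.14), and Foxa3 by 0.66 (SE 0.099). In limma the adjusted p of the 3 were 0.0016, 0.0046 and 0.0070. Bhlha15, the factor Mist1 that builds up the secretory machinery of granule-rich cells, gastric chief cells included, rose by 1.76 (SE 0.21; limma, adjusted p = 0.0025). For Foxa1 the controls ran from 1.42 to 1.87 and the knockouts from 2.66 to 3.07, without overlap. Klf4, Atoh1 and the rest of this list are added here, chosen after their values were seen. Klf4, a goblet differentiation factor, rose by 0.68 (limma, adjusted p = 0.0238), a call lost in 8 of 21 other settings, among them leaving out control 3 or 4 or knockout 1 or 4. Atoh1 differed by 0.40 and did not pass (limma, adjusted p = 0.117), although its controls, -0.57 to 0.06, and its knockouts, 0.13 to 0.25, did not overlap. Creb3l4 and Creb3l1 differed by 0.39 and 0.29, Gfi1 and Hes1 by 0.05 and 0.02, and Xbp1 by -0.08. None of these passed (limma, adjusted p from 0.0512 to 0.939).

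Among 16 tested genes of mucin glycosylation, of 19 listed, 6 rose and none fell, with a median of 0.14. Fut2, which fucosylates mucins, read -1.87, -1.90, -1.89 and -1.83 in the controls and -1.03, -1.07, -1.06 and -0.90 in the knockouts. The groups were far apart, and the difference was 0.86 (SE 0.072; limma, adjusted p = 3.3e-04). The branching enzymes Gcnt3 and Gcnt1 rose by 1.48 and 0.72 (limma, adjusted p = 0.0013 and 0.0034), and Galnt12, which starts O-glycan chains, by 0.51 (0.0268). Galnt12 did not pass in 11 of 21 other settings, among them leaving out any 1 array other than control 2 or 3. The count of 6 became 3 on leaving out control 1 or knockout 1, 2 or 4. Without control 2 and knockout 4, and likewise with the index as a covariate, 3 of the 16 passed.

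Of 12 genes of protein folding and granule release, 5 rose, with a median of -0.06. None of the 12 was called lower in this fit. With a trended robust prior 2 were, and 1 was with normexp background, with array weights or without control 4. Sdf2l1, Nlrp6, Hspa5, Stxbp2, Vamp8 and Creld2 are added here, chosen after their values were seen. They differed by -0.45, -0.44, -0.23, -0.22, -0.21 and -0.15, and none passed (limma, adjusted p from 0.0590 to 0.620). Ern2, the stress sensor of mucous cells, rose by 0.97 (limma, adjusted p = 0.0097). The granule-docking genes Sytl2, Rab27a and Rab3d rose by 1.17, 1.13 and 0.58 (limma, adjusted p = 0.0070, 0.0110 and 0.0149). Leaving out knockout 1 ended the Rab3d call (adjusted p = 0.0533 in limma). The count of 5 became 3 without knockout 1, and also without control 2 and knockout 4. Among 18 tested of 20 further goblet markers, 6 rose and none was called lower, with a median of 0.33. Muc13 is added here, chosen after its values were seen. It differed by -0.37 and did not pass (limma, adjusted p = 0.0648). Its controls, 7.61 to 7.93, and its knockouts, 7.35 to 7.57, did not overlap. The secreted phospholipase Pla2g10 rose by 1.35 and the channel subunit Lrrc26 by 1.44, Bcas1 by 0.68 and the guanylin gene Guca2a by 0.65 (limma, adjusted p = 0.0070, 0.0077, 0.0096 and 0.0233). The Guca2a call was lost in 9 of 21 other settings, among them leaving out control 4 or knockout 2, 3 or 4. Of the 18, 3 were higher with the covariate and on leaving out control 4 or knockout 2 or 4. Without control 2, alone or with knockout 4, 4 were higher and 1 lower.

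**Figure D4:**
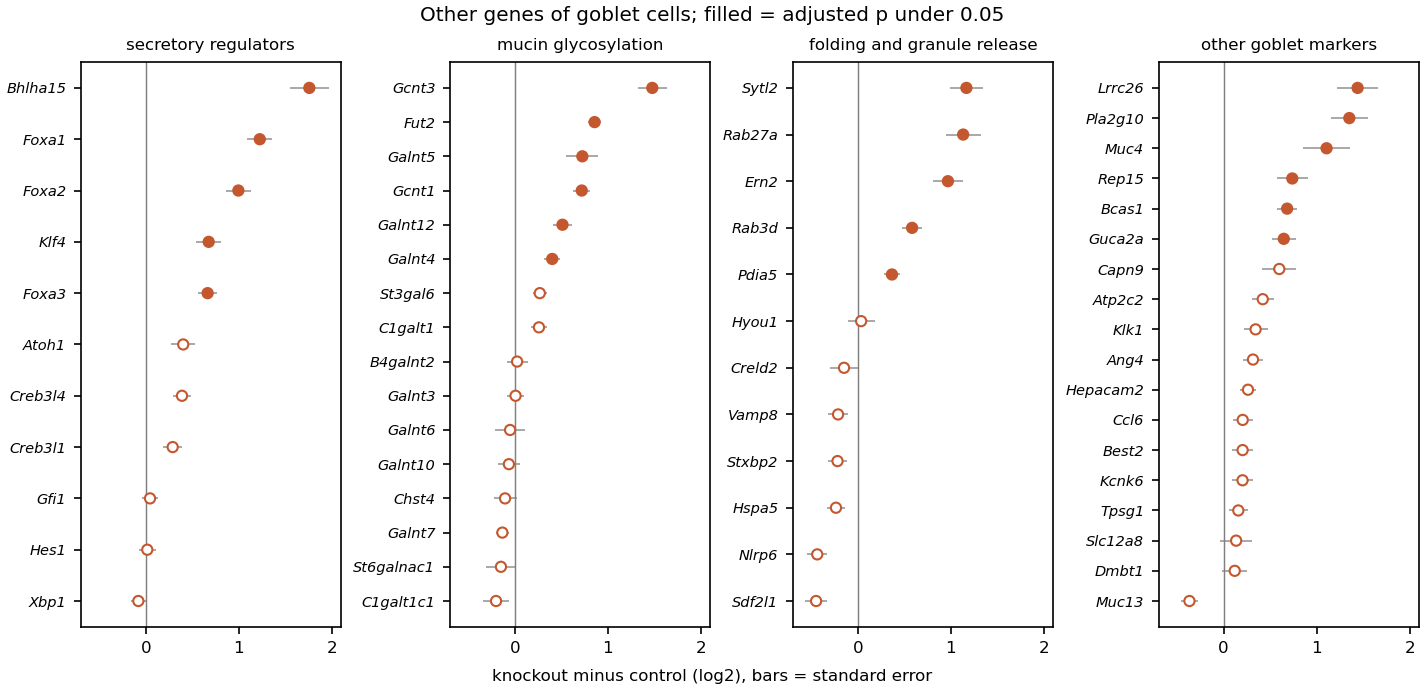
Difference of each tested gene in 4 lists of goblet cell biology, knockout minus control in log2 units on the x axis, with bars for the standard error and filled points for an adjusted p under 0.05 in limma. The filled points, 5, 6, 5 and 6 from left to right, all lie above 0.

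Gastric mucous markers rose on the same arrays. Of 11 listed, 4 were well above background on all 8 arrays, and 3 of these rose, with a median difference of 5.15 over the 4. The other 1 of the 4, the mucin Muc5ac, differed by 0.61 and did not pass (limma, adjusted p = 0.113). The mucin Muc6, well above background on 2 of 4 controls and all 4 knockouts, differed by 1.42 and did not pass (limma, adjusted p = 0.482). Gkn2 and Vsig1, well above background on every knockout and no control array, were at least 2322-fold and at least 76.2-fold higher (limma, adjusted p = 4.9e-07 and 2.5e-05). Sox2 was well above background on no control and on 3 of 4 knockouts, so it did not pass the filter. The summed level of the list was -0.45 to 2.76 in the controls and 8.61 to 9.52 in the knockouts. Tff2, a stomach trefoil peptide and a paralogue of Tff3, was 1 of the 3 gastric markers measured on all 8 arrays that rose. It was also the 1 of 9 paralogues measured on all 8 arrays that rose. Its relative Tff1 was well above background on 2 of 4 controls and all 4 knockouts. The part of gastric-type expression in the differences of Spdef and Agr2, and of the 4 lists, was not tested. Of the markers of other cell types, enterocyte genes had 4 of 10 lower (Fabp1, Fabp2, Lct and Apoa4) and none higher, with a median of -0.26. That count was 1 under quantile normalization, median centring, the replicate block or no filter, 1 without control 1 or 3 or knockout 1 or 2, and 2 without control 4. Of 4 tested Paneth markers Mmp7 was higher and Lyz1 lower, and the Lyz1 call was lost without control 1 or knockout 1, 2 or 3. In this fit none of 8 general epithelial, 8 mesenchymal, 6 blood and immune and 4 tested tuft markers passed in limma. The epithelial summed level was 8.46 to 8.90 in the controls, lowest on control 2, and 8.83 to 9.11 in the knockouts. In whole tissue, fewer cells of a type and less RNA per cell cannot be told apart.

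Promoters were read for the 4 members that have one in the RefSeq table of GRCm38.p6, Muc2, Spdef, Agr2 and Fcgbp, taking the 250 bases before the start. Motifs were searched on both strands: TNTTTAC for FOXA factors, TTTATNG for CDX factors and GTTGCC for the half-site of RFX factors. Over 32851 promoters they occurred in 10.9%, 9.81% and 10.4%. The FOXA letters were in the Spdef promoter, 47 bases before the start, and the CDX letters in the Agr2 promoter, 48 bases before it. None of the 4 held GTTGCC, and neither Muc2 nor Fcgbp held any of the 3. Both promoters with a match are shown with the match in capitals, as the reverse complement of the motif. They lie at chr17:27728952-27729201 (minus strand) and chr12:35992675-35992924 (plus strand). A link between these letters and the differences between groups was not tested. A match is a description of letters and not a bound site.
Spdef: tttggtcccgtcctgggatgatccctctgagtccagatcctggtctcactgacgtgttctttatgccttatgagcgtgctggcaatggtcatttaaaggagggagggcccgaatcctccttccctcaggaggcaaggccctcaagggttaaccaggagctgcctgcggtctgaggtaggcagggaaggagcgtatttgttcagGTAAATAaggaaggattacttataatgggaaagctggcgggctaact
Agr2: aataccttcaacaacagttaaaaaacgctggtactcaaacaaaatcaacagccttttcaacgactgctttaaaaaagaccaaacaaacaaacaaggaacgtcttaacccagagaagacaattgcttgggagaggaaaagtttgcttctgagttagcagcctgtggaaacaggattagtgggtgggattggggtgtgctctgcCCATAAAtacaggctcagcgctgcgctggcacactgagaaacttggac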

How the data were processed

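Per the labels' protocols, RNA was amplified from 100 ng and labelled with cyanine 3. The deposited scanner files hold an intensity per spot, background-subtracted by Agilent Feature Extraction 10.10.1.1 per the file headers and submitters' processing notes, on an mm9 grid; all 8 arrays shared 1 slide and 1 scan. The authors' series matrix, also an intensity, was an alternative. Control and outlier spots were set aside, log2 levels were centred on each array's 75th percentile, and a probe was kept if well above background on all 4 arrays of a group, giving 23290 genes, each by its probe with the highest mean. Probes were named by RefSeq accession (26582), symbol (2602) or synonym (492), and otherwise by the name in the file (26005). Tests used limma 3.58.1 in R 4.3.3, two-sided. The number of arrays limits the precision. On simulated data of 23180 genes with 200 changed, 83% of 2-fold and 96% of 4-fold changes were recovered, and 5.79% of calls were false.

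The members and lists were chosen with earlier results of these data known, and no list was tested as a set. Apart from the members, the text names the genes past the threshold with the 4 smallest adjusted p of a list and the 5 genes most like Muc2 (SD of deviations at least 0.25); exceptions are marked, and marker lists of other cell types are given in part. Replicate numbers were not taken to pair the arrays. Results were recomputed under 20 other settings (background, scaling, filter, probe choice, blocks, variance model, each array left out) and 2 chosen after the data were seen.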

Additional observations from a re-analysis of the deposited data

Results flagged for a closer look

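The values of the tested members and of part of the named genes gave 52 groups of 4. Among these, 3 held an array far from the other 3 of its group by Dixon's criterion, where chance gives about 2.6. Sytl2 stood at -1.10 on control 4, against -0.83 to -0.78 on the other controls. Lrrc26 stood at -1.09 on control 2, against -0.35 to -0.26. Guca2a stood at 6.71 on knockout 1, against 7.06 to 7.09 on the other knockouts. None was a member of the goblet set.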

How the results depend on the processing

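Zg16 passed in limma under all 22 alternatives, between -1.54 and -1.23 (adjusted p 0.0029 to 0.0365). Muc2, Clca3 and Fcgbp passed under none, and Retnlb was tested under no filter only. Spdef kept its direction in all 22 and passed in 8. It was lost at 0.56 with median centring, 0.50 with no filter, with every probe tested and with the replicate block, 0.48 with the slide row, 0.43 with the position index and 0.37 without control 2 and knockout 4; leaving out 1 array gave 0.39 to 0.55. Agr2 passed at 0.43 (series matrix), 0.47 (quantile) and 0.47 (position index). Differences near 0 changed sign: Tff3 to 0.067 (series matrix) and 0.076 (quantile), Fcgbp to -0.0042 (position index), and Spink4 to 0.014 (normexp), 0.14 (series matrix), 0.13 (quantile), 0.052 (median centring), 0.019 (array weights) and 0.22 (position index), with -0.14 to 0.094 on leaving out 1 array. The count of members called higher was 2 with the series matrix and quantile normalization and 0 with median centring, no filter, every probe, the replicate block, the slide row or without control 2 and knockout 4, and 0 to 1 on leaving out 1 array.

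Over all genes, the count lower was 253 with median centring, 202 with no filter, 148 with the replicate block and 1269 with array weights, and the count higher 298 with no filter, 268 with the replicate block and 829 with array weights. With 1 array removed these counts were 233 to 592 and 349 to 516; the lower count moved by over 1.5 times without control 1, 3 or 4 or knockout 1 or 2, and the higher count without control 1 or knockout 1 or 2. Same-numbered arrays did not deviate together (correlations -0.07, -0.17, 0.07 and -0.41), and 0 of 8 arrays matched their own number best. The numbers were therefore not taken as pairs, though a check on 4 arrays per group cannot exclude a pairing. Under the replicate block 1 member was lower and 0 higher. The counts of genes higher in the 4 goblet lists ranged from 4 to 6, 3 to 7, 3 to 5 and 2 to 7 over all alternatives. The 17 named genes of those lists that passed kept their direction in 357 of 357 values and their side of the threshold in 322. Except where an alternative tests more genes or uses fewer arrays, the cause of these changes was not tested.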
